A study of Junco hyemalis with 48 samples.

Results

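Regrowing tail feathers of a songbird, the dark-eyed junco (Junco hyemalis), were compared as whole feathers between the dark inner position and the white outer position of the same bird. The dark feather was the second rectrix (tail feather), here R2, which is pigmented along its whole length. The white feather was the sixth rectrix, here R6, which is unpigmented along its whole length. Members were the libraries labelled second rectrix and pigmented or sixth rectrix and apigmented, 24 of the 48 libraries of the series. The other libraries came from dissected parts of the fourth rectrix (R4) and did not enter the comparison. All feathers regrew after plucking, were pulled 14 days later, and R2 and R6 were frozen without dissection. No treatment differed between the groups, and the labels give no age or sex. Position along the tail and colour change together between R2 and R6 and cannot be told apart in this comparison.

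Feather colour of this kind comes from melanocytes, pigment cells of the follicle that build melanin in organelles called melanosomes and pass them to the keratinocytes that form the feather barbs. White plumage arises where melanin is not made or not passed on. A growing feather is a mixture of keratinocytes, pigment cells, pulp and blood, so its RNA is an average over them. In such bulk samples, fewer cells of a type and less RNA per cell cannot be told apart. The deposited table names its gene models by the letter g and a number and does not pair them with gene names. Functions and cell type markers could therefore not be assigned, and the labelled colours were not checked against pigment genes. At most 2 identifiers are printed in each direction, and levels of different gene models are not compared because no gene lengths were available.

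R2 had 11 libraries from 6 birds and R6 had 13 from 7 birds. The growth protocol speaks of 6 birds and the series text of 7, and the 7 animal identifiers in the labels were used. The birds are called A to G. Left and right feathers of a bird were summed, and the 6 birds with both feathers, A, B, C, D, F and G, gave 12 profiles. Levels are given in CPM, the counts of a gene model per 1000000 counts of a profile. Bird E had an R6 library and no R2 library, and bird F had 1 R2 library, from the left side. Library totals ran from 14.8 to 30.02 M counts in R2 and from 17.1 to 41.6 M in R6. The summed R2 profiles had a median of 40.4 M counts and the R6 profiles one of 51.8 M, with R6 the deeper in 5 of 6 birds (exact two-sided sign-flip permutation p = 0.125, adjusted p = 0.188 over 3 measures of composition, n = 6 birds). After thinning to an equal total, R2 showed 17121 ± 192 gene models with at least 1 count and R6 17256 ± 111 (SD, n = 6, exact permutation p = 0.0938, adjusted p = 0.188 over the thinned measures alone). Before thinning, the 20 gene models with the most counts held 14.7% ± 0.693 of counts in R2 and 14.8% ± 0.565 in R6 (SD, n = 6, exact permutation p = 0.812, adjusted p = 0.812 over the 3 measures). The smallest unadjusted p these 6 birds allow is 0.0312, so 1 measure alone could not pass 0.05 after adjustment.

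The first question was how large the difference between the dark and the white feather was over all gene models. Of 15240 gene models tested, 693 differed between R2 and R6 at an adjusted p under 0.05 in edgeR, which is 4.55% of those tested. Of these, 357 were higher in R2 (2.34%) and 336 were lower (2.2%). More than 4-fold differences were found in 25 higher and 8 lower gene models. Of these, 16 higher and 0 lower ones had a mean of at least 1 CPM, and those 16 had log2 folds of 2.21 to 7.98. Above 2-fold at that mean the numbers were 40 higher and 41 lower.

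Most called differences were small. The median log2 fold was 0.34 for the higher and -0.45 for the lower gene models, or 1.27-fold and 1.36-fold. In all, 130 of the 357 higher and 80 of the 336 lower gene models differed by less than 1.2-fold. More than 2-fold differences were found in 62 higher and 68 lower gene models. Over all 15240 gene models the median log2 fold was -0.002, and the middle 90% lay between -0.38 and 0.26.

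**Figure D1:**
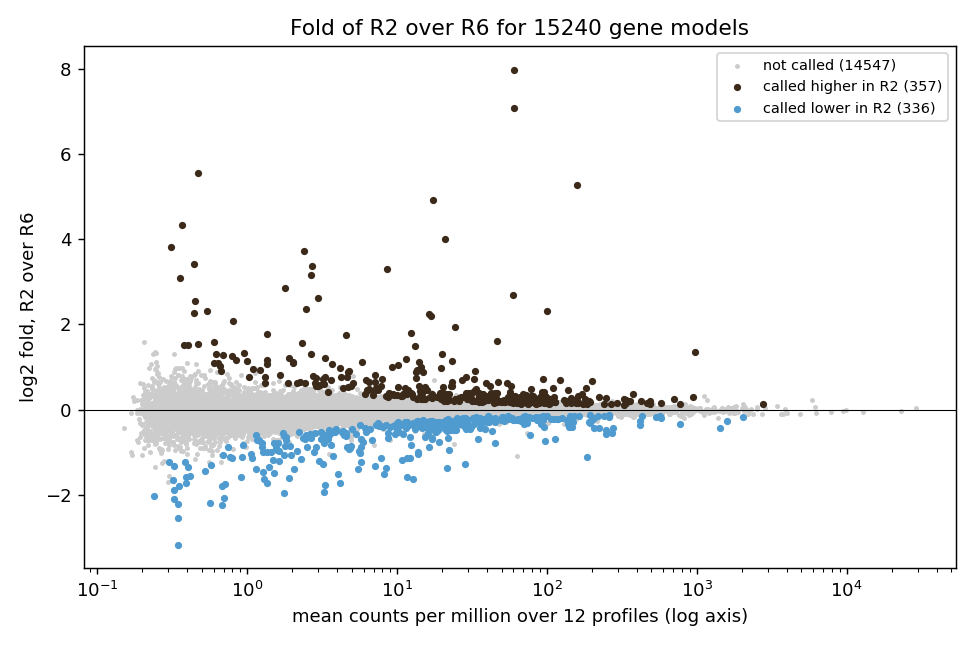
Log2 fold of R2 over R6 (vertical axis) against the mean CPM over 12 profiles (horizontal log axis), each point a gene model. The 357 called higher in R2 reach log2 folds of 7.98 and the 336 called lower reach -3.16. Points under 1 CPM spread widely, and 2.47% of them were called.

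The size of called folds and their SE differed with the level of the gene model. Between 10 and 100 CPM the median SE of a log2 fold was 0.05, and 200 gene models were called higher and 157 lower, at median log2 folds of 0.30 and -0.30. Below 1 CPM the median SE was 0.29, and the 23 higher and 29 lower calls had median log2 folds of 1.51 and -1.59. The called share was 2.47% below 1 CPM and 5.23% between 10 and 100 CPM. In the class from 1 to 10 CPM, 107 lower calls stood beside 72 higher ones, whereas from 100 to 1000 CPM it was 40 lower beside 61 higher. At that SE, a 1.2-fold difference was not detectable below 1 CPM.

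The dark-feather gene model g3235 changed most among those with a mean of 1 CPM or more. In R2 its lowest, median and highest bird held 105, 118 and 150 CPM. In R6 the same 6 birds held 0.236, 0.320 and 0.916 CPM. Every R2 value lay far above every R6 value. The means were 121 ± 15.5 CPM in R2 and 0.472 ± 0.286 CPM in R6 (SD, n = 6 each), and edgeR fitted a 252-fold difference, on the log2 scale 7.98 ± 0.22 (SE) with an adjusted p of 3.34e-06. The R6 values rest on 12 to 50 counts per bird, the R2 values on 1785 to 7402.

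Every white feather held a few counts of g3235. Single R6 libraries held between 0.116 and 1.00 CPM, and the 2 feathers of a bird differed there by up to 1.90 on the log2 scale. Single R2 libraries held 101 to 156 CPM, and the feathers of a bird differed by at most 0.31. The white feather of bird E, which took no part in the test, held 0.933 CPM. In the dissected R4 the level ran from 4.33 to 142 CPM in dark parts (n = 7 birds) and from 3.00 to 24.2 CPM in white parts (n = 6).

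The gene model g12925 had the greatest gain in mean CPM of any called gene model. Its lowest, median and highest R2 values were 1168, 1411 and 1659 CPM. Its R6 values were 418, 537 and 691 CPM. The lowest R2 value lay well above the highest R6 value. The means were 1397 ± 167 CPM in R2 and 553 ± 105 CPM in R6 (SD, n = 6 each), and edgeR fitted a 2.55-fold difference, on the log2 scale 1.35 ± 0.05 (SE) with an adjusted p of 3.33e-09. Birds differed in level more than in fold, since the order of the birds was similar in both feathers. Birds C and D were highest and bird B lowest in both feathers, with 655, 691 and 418 CPM in R6. The log2 difference within a bird lay between 1.07, in bird D, and 1.48, in bird B. R6 of bird E held 479 CPM. Dark parts of R4 held 805 to 1493 CPM and white parts 570 to 976 CPM, which overlap.

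Among gene models lower in the dark feather, g3304 had the largest fold at a mean of at least 1 CPM. Its R2 values were 0.445, 0.644 and 1.06 CPM at the lowest, median and highest bird, and its R6 values 0.559, 3.27 and 3.85 CPM. Both groups overlapped because of bird C, whose R6 held 0.559 CPM, with the next bird at 2.64 CPM. The low value of bird C came from both of its white feathers, at 0.580 CPM on the left and 0.521 CPM on the right. The means were 0.692 ± 0.241 CPM in R2 and 2.83 ± 1.18 CPM in R6 (SD, n = 6 each), which edgeR put at -1.95 ± 0.25 (SE) on the log2 scale with an adjusted p of 5.25e-04. All 6 birds had the lower value in R2, which the choice of named gene models required. Their log2 differences ran from -0.19 in bird C to -2.75 in bird G. Without bird C the log2 fold was -2.20 (adjusted p = 1.11e-05 in edgeR). These values rest on 13 to 210 counts per profile, and R6 of bird E held 3.38 CPM. In R4 the dark parts held 0.292 to 1.75 CPM and the white parts 0.215 to 1.82 CPM, ranges that nearly coincide.

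The gene model g21907 had the greatest loss in mean CPM. R2 values were 1051, 1218 and 1368 CPM and R6 values 1414, 1648 and 1815 CPM at the lowest, median and highest bird. The highest R2 value lay just under the lowest R6 value. The means were 1219.7 ± 124 CPM and 1631 ± 146 CPM (SD, n = 6 each), and edgeR fitted R6 as 1.34-fold higher, or -0.42 ± 0.04 (SE) for R2 over R6 on the log2 scale with an adjusted p of 8.43e-06. The birds lay close together, with log2 differences between -0.55 and -0.34. R6 of bird E held 1641 CPM. In a fit that also held the R4 parts the call was lost (log2 fold -0.44, adjusted p = 0.630 in edgeR). Levels in R4 ran from 606 to 2230 CPM in dark and from 1303 to 2820 CPM in white parts, wider than in whole feathers.

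**Figure D2:**
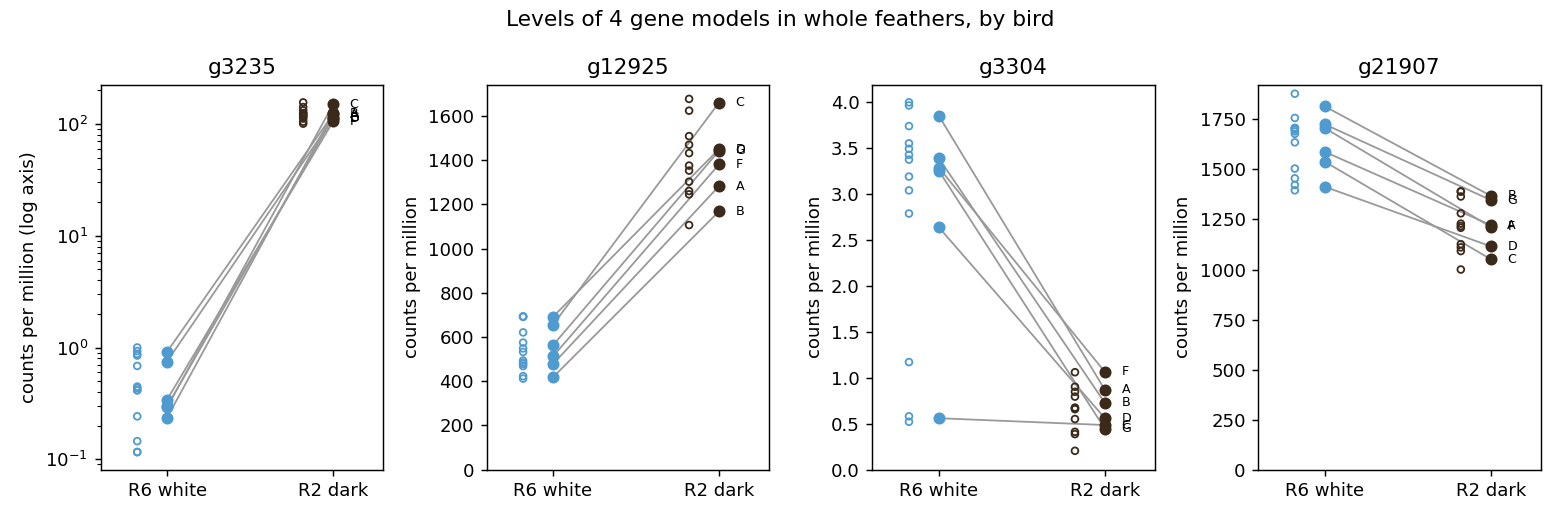
CPM in R6 and R2 for 4 gene models, with filled points for the summed profiles of birds, lines joining the feathers of a bird and open points for single libraries, including the R6 library of bird E; the first panel has a log axis. For g3235, g12925 and g21907 the bird profiles of R2 and R6 do not overlap, whereas for g3304 the R6 profile of bird C, at 0.559 CPM, lies among the R2 values.

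The 16 gene models above 4-fold with at least 1 CPM had the largest folds among those called higher in R2 at that mean. Their mean R2 levels ran from 3.15 to 312 CPM with a median of 27.3 CPM, and 10 of the 16 reached 10 CPM. In R6 they ran from 0.331 to 37.1 CPM with a median of 1.01 CPM, and 8 were under 1 CPM. In 15 of the 16, which were chosen for their folds in these birds, the birds did not overlap between R2 and R6, against 0.643% of all gene models tested that did not overlap and were higher in R2. The median coefficient of variation between birds was 16.1% in R2 and 47.3% in R6, where counts were low. The median log2 difference of the 16 was 3.07 in bird A, 3.31 in B, 3.41 in C, 3.08 in D, 3.80 in F and 2.69 in G. The choice of the 16 on these birds favours high medians in each. A further 24 gene models were 2-fold to 4-fold higher at 1 CPM or more, with a median R2 level of 10.1 CPM against 4.69 CPM in R6. Mean levels in the R4 libraries, which took no part in the choice, were higher in the dark than in the white part for 15 of the 16 and for 23 of the 24. Dark parts came from 7 birds and white parts from 6, and these means were not paired. Except for bird E, they were birds that took part in the choice. The share of all gene models that were higher in the dark part was not computed, so these counts lack a background.

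Gene models lower in the dark feather were grouped at a 2-fold limit. At least 2-fold lower in R2 with a mean of 1 CPM or more were 41 gene models, with log2 folds of -1.002 to -1.95. Their median level was 1.87 CPM in R2 and 5.13 CPM in R6, and 14 of the 41 reached 10 CPM in R6. Birds did not overlap in 20 of the 41, also chosen for their folds, against 0.453% of all gene models tested that did not overlap and were lower in R2. In 40 of the 41 every bird was lower in R2, and over all those tested 11.5% moved the same way in 6 birds. The coefficient of variation had a median of 36.3% in R2 and 32.8% in R6. The median log2 difference of the 41 lay between -1.42 in bird B and -1.13 in bird C. In R4, 22 of the 41 had a lower mean in the dark part and 19 a higher mean. The share of all gene models with a lower mean there was not computed. Whether the higher and the lower gene models differ in their direction in R4 was not tested here.

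Few gene models crossed a limit of 1 CPM between the feathers in every bird. Called higher in R2, 2 gene models were under it in all 6 R6 profiles and at or over it in all 6 R2 profiles, and 3 called lower showed the opposite. Of the 15240 tested, 1261 were under it in all 12 profiles. No called gene model had 0 counts in all profiles of the group where it was lower.

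The counts of the called gene models, which were 4.55% of those tested, were summed in each direction. The 357 higher gene models summed to 29641 ± 700 CPM in R2 and 23587 ± 1029 CPM in R6 (SD, n = 6 each). The gene model g12925 alone made up 13.9% of that difference, and the 10 with the greatest differences 37.8%. The 336 lower gene models summed to 18370 ± 743 CPM in R2 and 22630 ± 1037 CPM in R6, where the first 10 made up 39.8% of the difference. These sums describe the gene models chosen on the same profiles and are no test.

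The next question was how evenly the birds showed the difference. Of the 357 higher gene models, 343 were higher in R2 in all 6 birds, and of the 336 lower ones, 312 were lower in all 6. Over all gene models tested, 11.5% moved the same way in 6 birds. The birds did not overlap in 94 of the higher and 60 of the lower gene models, against 0.643% and 0.453% of all those tested. The called gene models were chosen on the same 6 birds with the bird as a block, which favours both traits. The median log2 difference of the higher gene models lay between 0.30 and 0.37 in the 6 birds, and that of the lower ones between -0.46 and -0.38.

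Most of the variance lay between birds, and per degree of freedom the shares of birds and feathers were similar. Over all tested gene models, 67.7% of the variance of log2 CPM lay between birds, 13.1% between R2 and R6, and 19.3% in neither. Birds account for 5 degrees of freedom and feathers for 1, so the share per degree of freedom was 13.5% between birds and 13.1% between feathers, against 3.86% for the rest. Among the 357 higher gene models 73.1% lay between R2 and R6, but these were chosen for it. The first principal component, with 21.5% of the variance, had R2 above R6 in 4 of 6 birds. Components 2 and 3, with 15.5% and 13.01%, had it in 6 of 6, as had component 4, and component 5 had R2 below R6 in 6 of 6. The share of a component that lay between R2 and R6 was 6.26%, 12.7%, 48.1%, 2.43% and 26.5% for components 1 to 5. Profiles of the same bird deviated from their group means together, with r across genes between 0.472 and 0.686, and r between different birds lay between -0.257 and 0.0970. Deviations from a group mean balance out over its birds, so part of this contrast in r is built in.

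**Figure D3:**
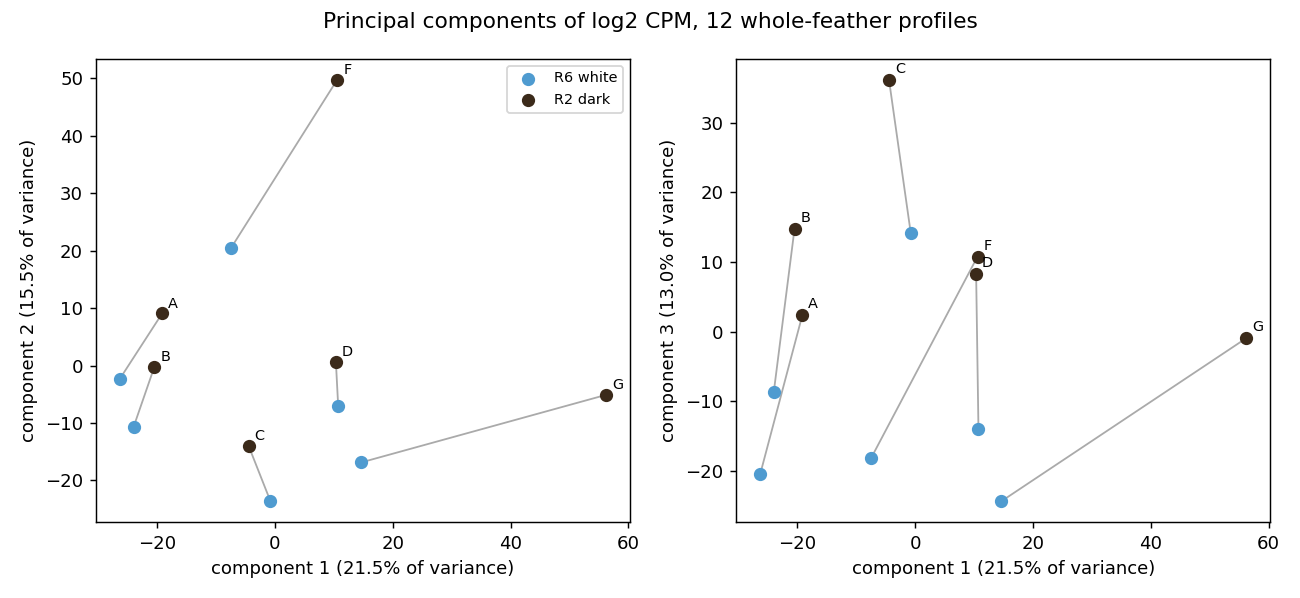
Principal components of log2 CPM over the 12 whole-feather profiles, with component 1 on the horizontal axes and components 2 and 3 on the vertical axes, and lines joining R6 and R2 of a bird. R2 lies above R6 in all 6 birds on components 2 and 3. R2 of bird G stands apart on component 1, and R2 of bird F on component 2. There bird F is at 49.8 in R2 and 20.4 in R6, and the next profile is at 9.09.

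By the number of gene models lower in R2, bird G stood apart, and bird F to a lesser degree. In bird G, 916 gene models were more than 2-fold lower in R2 than in R6, against 216 to 279 in birds A to D and 509 in bird F, whose R2 was 1 library. Of the 916, 67 were among the called lower gene models, and of those chosen likewise on each other bird, 52 to 79 were. Over all gene models tested, 2.2% were called lower. For the 916, the other birds had a median log2 difference of -0.09. The 916 were chosen on bird G, and for them its R2 was below R2 of the other birds by a median of 1.25 on the log2 scale and its R6 above other R6 by 0.12. For gene models chosen likewise on each other bird, these medians were -1.13 (bird F) to -0.37 (bird A) in R2 and 0.10 to 0.41 in R6. A mean of 1 CPM or more was reached by 464 of the 916, by 149 of the 509 in bird F, and by 59 to 89 in birds A to D. Birds F and G were extracted in the same batch, so bird and batch cannot be told apart here. The left R2 library of bird G was lower than its right by a median of 0.63. Gene models more than 2-fold higher in R2 numbered 198 in bird G and 162 to 262 in the others. Without bird G, 904 of 15307 gene models tested were called in place of 693 of 15240, 465 higher and 439 lower.

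The spread between birds in R2 changed with bird G. The median SD of log2 CPM was 0.22 in R2 and 0.19 in R6, with the larger SD in R2 for 62.8% of gene models. Without bird G both were 0.19, and R2 had the larger SD for 50.5%. Leaving out any other bird gave between 60.8% and 64.9%.

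Most called gene models with large folds were also called when any 1 bird was left out. The fits without a bird share all but 1 of the birds on which the gene models were chosen, which favours this. Of the 357 higher gene models, 197 were called in each of the 6 fits that left out a bird, among them 51 of the 62 above 2-fold. Of the 336 lower ones, 156 were called in all 6 fits, among them 44 of the 68 above 2-fold. Both g3235 and g12925 and both g3304 and g21907 were among them. Counts fell to 414 of 15153 gene models tested without bird A and 444 of 15230 without bird B, of which 408 and 431 were among the 693. No gene model was called in opposite directions by any of these fits.

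**Figure D4:**
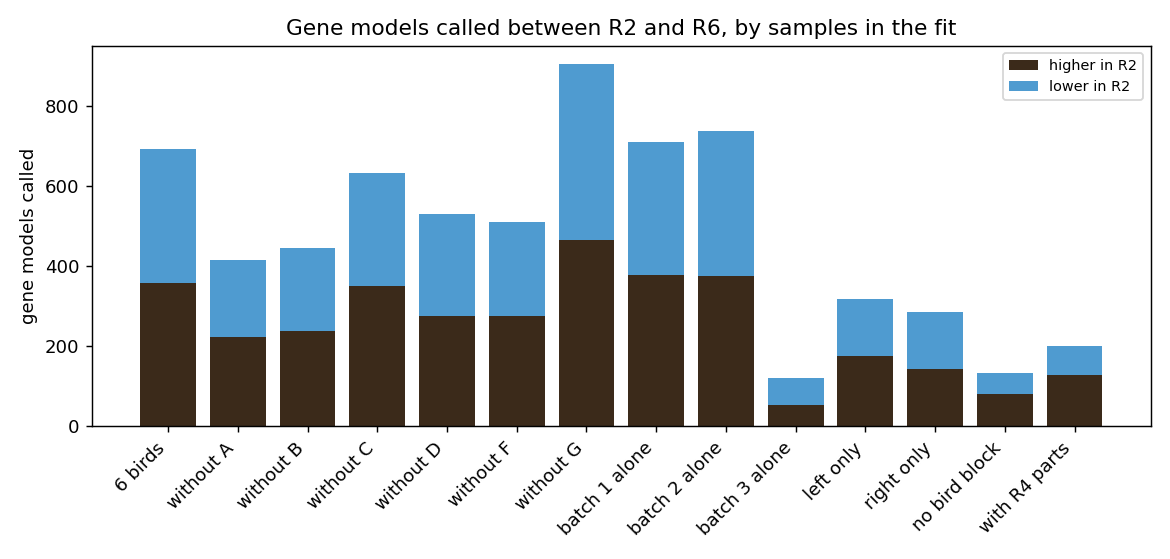
Number of gene models called higher and lower in R2 (stacked bars) in the fit of 6 birds and in fits of other samples, including each bird left out, each extraction batch, each side, no bird block, and the R4 parts added. The count runs from 122 in extraction batch 3 alone to 904 without bird G, and both directions are present in each fit.

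Left and right feathers gave separate samples of the same comparison. On left feathers (6 birds) 318 gene models were called, 2.24% of 14202, and on right feathers (5 birds) 285, or 2.01% of 14207. The 100 gene models called higher on both sides were 57.1% of those higher on the left and 69.4% of those higher on the right. The 86 called lower on both sides were 60.1% and 61.0%. None was called in opposite directions.

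Folds carried over from the left to the right side of the tail. Of 174 gene models called higher on left feathers and tested on the right, 173 were above 0 there, with a median log2 fold of 0.46 against 0.51 on the left. Of 141 called lower on the left, 140 were below 0 on the right, with medians of -0.57 and -0.65. Over all gene models on the right the median log2 fold was -0.003, and 48.8% were above 0. The feathers were different but the birds were the same, so this describes the feathers of these birds. For g3235 the log2 fold was 7.80 on the left (SE 0.15) and 8.22 on the right (SE 0.34), and for g12925 it was 1.36 (SE 0.06) and 1.33 (SE 0.07). For g3304 it was -2.21 (SE 0.31) and -1.64 (SE 0.34), and for g21907 -0.40 (SE 0.04) and -0.44 (SE 0.06). These named gene models were chosen on the summed counts of both sides, so their folds on each side are no independent check.

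**Figure D5:**
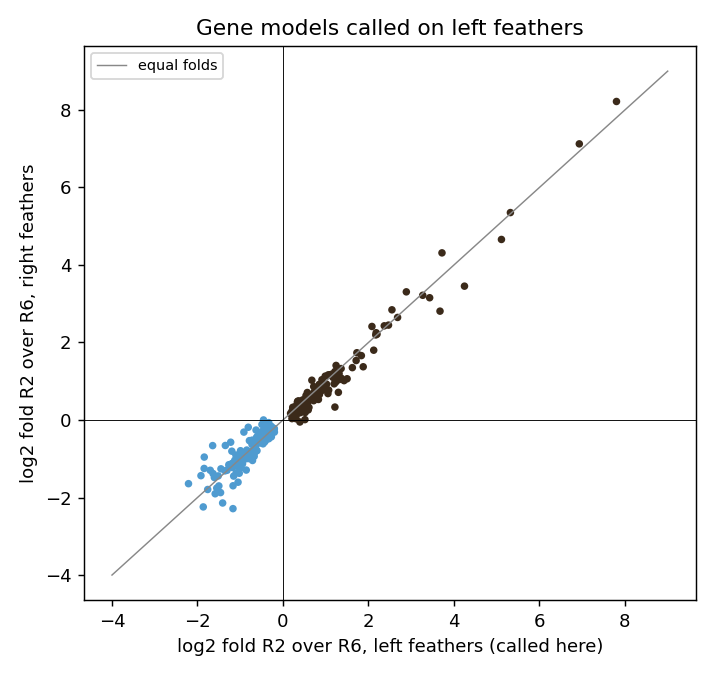
Log2 fold of R2 over R6 on right feathers (vertical axis) against that on left feathers (horizontal axis) for the gene models called on left feathers. All but 2 keep their sign on the right, and they lie along the line of equal folds.

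Side itself, a contrast with no colour difference, gave almost no calls. Within R2, 0 of 14373 gene models (0%) differed between right and left in edgeR, with 320 (2.23%) at an unadjusted p under 0.05. Within R6, 1 did (0.00696%), with 649 (4.52%). That gene model was higher on the right by 0.52 (SE 0.07, adjusted p = 0.00890 in edgeR) on the log2 scale, and it was also among those lower in R2, at a log2 fold of -0.41. The difference between sides was tested against the feather, and 0 gene models passed in edgeR (0%), with 490 (3.41%) at an unadjusted p under 0.05. For g3235, g12925, g3304 and g21907 the adjusted p of that test was 0.999 in edgeR. Their differences in log2 fold were 0.24 (SE 0.30), -0.03 (SE 0.07), 0.70 (SE 0.40) and -0.05 (SE 0.07). Each share at an unadjusted p under 0.05 lay below that expected if no gene model differed. Few calls therefore do not show that the sides are alike.

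RNA was extracted in 3 batches, per the labels, each holding both feathers of 2 of the 6 birds. Birds A and B made up batch 1, C and D batch 2, and F and G batch 3. For g3235 the mean log2 difference was 7.89, 7.97 and 8.23 in batches 1 to 3, and for g12925 it was 1.45, 1.205 and 1.39. For g3304 it was -2.12, -1.17 and -2.17, the middle value holding bird C, and for g21907 it was -0.39, -0.45 and -0.42. Each of these kept its direction within every batch. That was fixed in advance, since named gene models had to move the same way in all 6 birds. In fits of a batch alone, 709 of 15591, 737 of 15428 and 122 of 15008 gene models tested were called. Of these, 436, 396 and 94 were among the 693. The call of g3235 was lost in batch 1 alone, at an adjusted p of 0.211 in edgeR with a log2 fold of 7.77. A test of whether the fold differed between batches called 3 of 15240 gene models in edgeR (0.0197%). None of them was among the 693, but all changed sign between batches, which works against a call over the 6 birds. In that test 1441 gene models, 9.46% of those tested, had an unadjusted p under 0.05. That is more than the share expected if no fold differed between batches.

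The R6 library of bird E, a single library with 17.2 M counts, entered none of these fits. Of the 357 higher gene models, 292 had a level in it that was closer to the mean of R6 than to that of R2, and of the 336 lower ones, 241 did. Among those that differed by more than 2-fold, the numbers were 58 of 62 and 59 of 68. The share of all gene models tested that lay closer to R6 was not computed, so these counts lack a background.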

How the data were processed

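The authors deposited raw counts per gene model, 1 column per library, not normalized; each of the 48 columns carries the title of its sample. Per the labels, libraries were stranded mRNA libraries read at 75 bp. Tools named in the submitters' processing notes are STAR 2.7.2b, Subread 1.6.0, featureCounts, Trimmomatic 0.33 and bcl2fastq. The genome, the annotation and the strand setting used for counting are not given there, so overlapping gene models and near-identical copies are uncertain.

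Counts of left and right libraries were summed per bird and group. The 11 left and right pairs differed by more than counting noise, with a chi-square per gene of 4.52 to 21.9. The 12 profiles were fitted alone with edgeR 4.0.16 (R 4.3.3), using TMM factors, its default expression filter, robust dispersions and the quasi-likelihood test with the bird as a block, and Benjamini-Hochberg adjustment over 15240 gene models. Pairs share an animal. The biological coefficient of variation was 8.16%. DESeq2 1.42.0 was an alternative. CPM used TMM-scaled totals, per-bird log2 differences a prior count of 2, and SE came from the fold and its F statistic. Closeness of bird E used log2(CPM + 0.5). The test was tested on simulated data.

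Named gene models were, among called ones that all 6 birds moved the same way, the largest fold in each direction (mean of 1 CPM or more) and the largest difference of mean CPM. The comparison, the rule and the groups of gene models were chosen with earlier results of these data known.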

Additional observations from a re-analysis of the deposited data

Results flagged for a closer look

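In 2 of 21 groups of values examined, 1 bird lay apart from the others, where 1.05 are expected if the groups were independent, since about 1 in 20 is flagged when nothing stands apart. For g12925 the log2 difference of R2 and R6 in bird D was 1.07, with the next bird at 1.34. For g3304 the R6 level of bird C was 0.559 CPM, with the next of 7 birds at 2.64 CPM, and both of its R6 libraries were low.

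The fold of R2 over R6 differed between extraction batches for 3 gene models. Their mean log2 differences in batches 1, 2 and 3 were 0.73, 0.52 and -1.38 for the first, 0.84, -0.16 and -1.71 for the second, and 0.34, 0.23 and -1.06 for the third, with adjusted p of 2.07e-04, 0.00986 and 9.23e-06 in edgeR. In batch 3 both birds had the lower level in R2. Batch and bird cannot be told apart here, since each of the 6 birds in the test was extracted in 1 batch.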

How the results depend on the processing

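The count of 693 called gene models (357 higher, 336 lower) was within 1.5 times of that value with DESeq2 size factors, DESeq2, no filter on low counts, a mean of at least 5 CPM, a dispersion that was not robust, thinning to equal depth, batch 1 or 2 alone, and bird F with its left feathers only, the last chosen after seeing the data. It was 133 (81 higher, 52 lower) without the replicate block for the bird, 200 (128 and 72) with all 4 groups in 1 fit, 318 (175 and 143) on left feathers, 285 (144 and 141) on right feathers and 122 (54 and 68) in extraction batch 3 alone. With 1 bird left out it lay between 414 and 904, with 222 to 465 higher and 192 to 439 lower. Batches 1 and 2 alone, with 2 birds each, called 709 and 737 gene models, of which 436 and 396 were among the 693. The cause of these changes was not tested. The directions of g3235, g12925, g3304 and g21907 were kept under every alternative run, but g3304 was not tested at a mean of at least 5 CPM. All 4 calls were kept without the replicate block, the only lost calls being g3235 in batch 1 alone and g21907 with all 4 groups.

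With a bird left out, the calls on left and right feathers lay between 181 and 427 and between 129 and 324, and the median log2 fold on the right between 0.35 and 0.69 for gene models higher on the left and between -0.82 and -0.47 for those lower. Right against left in R6 then gave 0 to 2 calls, with 512 to 906 at an unadjusted p under 0.05 in edgeR. At a mean of at least 5 CPM, gene models higher on the left had a median log2 fold of 0.38 on the right. The batch test called 67 gene models without a filter. Composition differences passed in none of the alternatives run, though 5 birds cannot reach an exact permutation p under 0.0625. Gene models under 1 CPM had a median SE of the log2 fold of 0.29.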
